A study of Homo sapiens with 6 samples.

Results

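The L1PB entries are LINE1 subfamilies that were measured here by the RNA assigned to all their genomic copies. They were chosen by name, as the entries of the deposited repeat count table that start with L1PB, which gave 8 of 15600 entries and 8 of the 131 entries that carry a LINE1 name (L1 or HAL1). Of the 8, 4 are numbered (L1PB1, L1PB2, L1PB3 and L1PB4), 3 are lettered (L1PBa, L1PBa1 and L1PBb) and 1 is the name L1PB alone. All 8 passed the filter on low counts, with 535 to 106809 counts per library.

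LINE1 elements are retrotransposons that copy themselves through an RNA intermediate with a reverse transcriptase and endonuclease that they encode. L1PB is a primate lineage that evolved beside L1PA, the lineage that leads to L1HS, the only subfamily still able to move in humans. L1PB became extinct long before that, so its copies are old, mostly truncated and mutated, and L1PB1 is the youngest and L1PB4 the oldest of the numbered subfamilies. In the Repbase library the lettered names were given to consensus sequences of the upstream end of the element. Many old copies lie inside introns, so their RNA can be part of a host transcript rather than of a LINE1 transcript.

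Total RNA was measured in 6 libraries of the human embryonic stem cell line H9, with 2 libraries in each of 3 groups. The primed group was grown in mTeSR medium, and the RSeT group in RSeT, a commercial medium for a naive-like state. The RSeT+DT group was grown in RSeT with 10 nM DZNep, which inhibits S-adenosylhomocysteine hydrolase and lowers the Polycomb methyltransferase EZH2, and 5 nM TSA, a histone deacetylase inhibitor, and was collected after 48 hours. All groups come from this 1 line, the labels name no genetic change and no vehicle control, and the labels do not say whether replicates were separate cultures, so p-values measure only the spread between these libraries. Counts per library ranged from 11520770 to 38312112, the most in RSeT replicate 1. At repeat level all libraries held HERVH-int, the internal part of a retrovirus active in human pluripotent cells, at 23829 to 118627 CPM (counts scaled to the library's total over the listed repeat entries), with the lowest values in primed cells. LTR5_Hs, a retroviral promoter known from naive cells, was at 327.3 and 364.7 CPM in primed cells and at 3974 to 4247 CPM in the other libraries. LTR7 and HERVK-int were also lowest in primed cells, at 3321 and 3574 CPM and at 335.8 and 344.5 CPM. SVA_D did not follow this order. It was at 1371 and 1426 CPM in primed, 1355 and 1425 CPM in RSeT and 1272 and 1301 CPM in RSeT+DT cells. Protein-coding marker genes were not analysed here. All 7 listed repeats used in trophoblast were detected, summing to 1388 and 1426 CPM in primed, 1784 and 1859 CPM in RSeT and 1596 and 1598 CPM in RSeT+DT cells. LTR17 carried the order of these sums. Without it the other 6 summed to 1222 and 1255 CPM in primed, 1332 and 1404 CPM in RSeT and 1019 and 1052 CPM in RSeT+DT cells. That sum was lowest in RSeT+DT cells, as were ERV3-16A3_I-int, its largest part, and LTR10A, MER39 and LTR2B. MER50-int was instead lowest in primed cells (65.9 and 71.7 CPM, against 87.7 and 93.0 CPM in RSeT+DT cells). MER41B overlapped between primed (196.8 and 207.7 CPM) and RSeT+DT cells (192.1 and 205.6 CPM). The part of this list in the L1PB results was not tested.

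The lineage was a small part of LINE1 RNA, and this share differed little between replicates. Summed over its 8 entries, L1PB accounted for 3.412% and 3.411% of primed LINE1 counts, 4.142% and 4.18% of those from RSeT cells, and 3.942% and 3.953% of those from RSeT+DT cells. The groups did not overlap, and the primed replicates were closest to each other. As a share of all repeat counts, L1PB stood at 0.391% ± 0.012 for primed, 0.565% ± 0.0055 for RSeT and 0.396% ± 0.02 for RSeT+DT cells (mean ± SD, n = 2 each). On that denominator primed and RSeT+DT cells overlapped and RSeT cells stood above both. Small RNA, mostly the RNA of the signal recognition particle, moved the other way, at 25.4% ± 1.5, 17.4% ± 0.61 and 24.4% ± 1.8 of all counts. With small RNA, ribosomal RNA and simple repeats left out of the denominator the L1PB share was 0.63% ± 0.0011, 0.783% ± 0.0011 and 0.633% ± 0.02, so RSeT was again the highest group, with a smaller gap. In these bulk libraries fewer cells of a kind and less RNA per cell cannot be told apart.

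**Figure D1:**
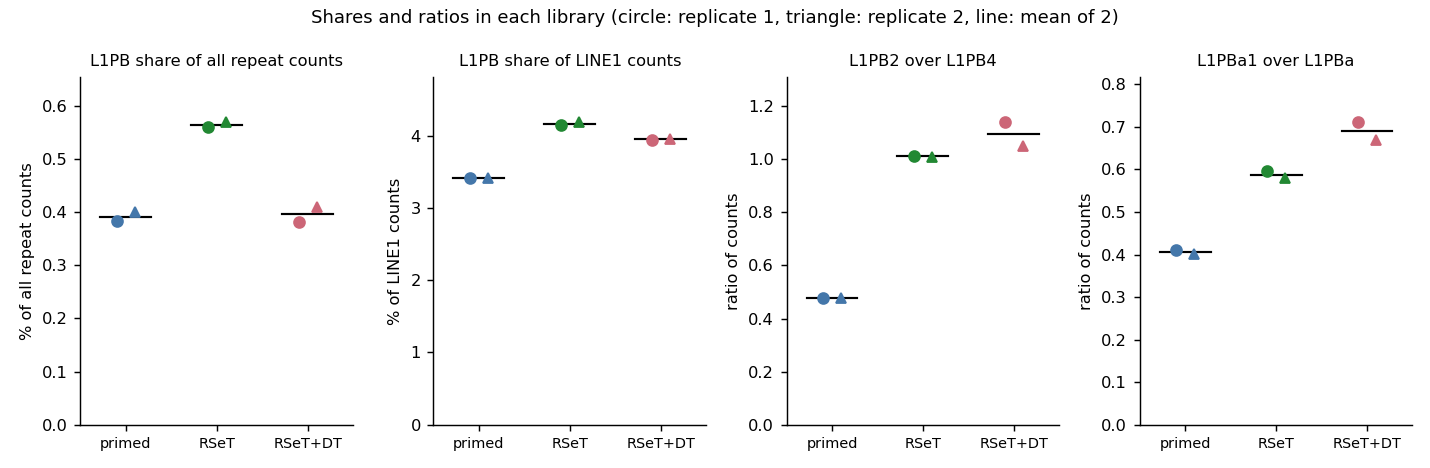
The vertical axes are the share of L1PB in all repeat counts and in LINE1 counts (percent), and the count ratios of L1PB2 to L1PB4 and of L1PBa1 to L1PBa. Points are libraries in the primed, RSeT and RSeT+DT groups, lines are means of 2, and all axes start at 0. The share of LINE1 counts goes from 3.41% in primed to 4.16% in RSeT and 3.95% in RSeT+DT cells. The L1PB2 to L1PB4 ratio goes from 0.478 to 1.01 and 1.09, with the RSeT+DT libraries apart at 1.139 and 1.049.

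The first comparison sets RSeT cells against primed cells. All 8 entries rose in RSeT cells, with log2 fold changes from 0.35 to 1.43 and a median of 0.58 in edgeR's quasi-likelihood test, which compares the groups after TMM scaling of the libraries. An entry was called when its p, adjusted over all 4665 entries tested, was under 0.05. Over all of these 22.8% rose, 23.8% fell and the median change was -0.03. Of the entries tested 3433 are simple repeats, and among the other 1232 a rise was frequent, with 629 higher, 107 lower and a median of 0.17. Among the 123 other LINE1 entries 82.1% rose and 1.63% fell, with a median of 0.27, so a rise in itself is common to LINE1 entries in this comparison. All 8 L1PB entries also rose under RLE size factors (background 24.7% higher and 22.2% lower) and library totals (14.6% and 32.9%). They rose as well under interspersed scaling (30.1% and 26.5%), which leaves out small RNA, ribosomal RNA and simple repeats but keeps satellites. On that last scale the L1PB median was 0.41, while 68 of 123 other LINE1 entries rose, 14 fell and their median was 0.11. In the deposited CPM the RSeT libraries stood above the primed libraries for 8 of 8 entries, against 23% of the 7383 entries listed there (40.3% had them below).

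L1PB2 had the largest rise of the 8. Primed libraries held 268.9 and 284.5 CPM, RSeT 680.2 and 682.5 CPM and RSeT+DT 495.6 and 518.9 CPM. The 3 groups did not overlap, and the gap between primed and RSeT cells was far wider than the gap within any group. A lack of overlap is itself common, since RSeT lay above primed libraries for 23% of entries listed and below for 40.3%. Its log2 fold change in RSeT against primed cells was 1.43 (SE 0.043, 2.7-fold, adjusted p = 1.49e-19 in edgeR), which ranks 4 among the 131 LINE1 entries tested.

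L1PBa1, a lettered entry, followed. Its values were 127.7 CPM in both primed libraries, 252.1 and 258.4 CPM in RSeT, and 195.0 and 203.0 CPM in RSeT+DT. Again the groups did not overlap, which is common among the entries listed, and primed cells were lowest. The log2 fold change in RSeT against primed cells was 1.13 (SE 0.039, 2.19-fold, adjusted p = 3.25e-18 in edgeR).

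L1PB3 was the third entry with a large rise, from 335.7 and 350.3 CPM in primed to 586.2 and 590.4 CPM in RSeT cells (log2 fold change 0.91, SE 0.043). Its RSeT+DT values of 377.3 and 410.1 CPM lay between the other groups. L1PB1, the youngest numbered subfamily and the one with the most counts, was at 2061 and 2141 CPM in primed, 2788 and 2826 CPM in RSeT and 1901 and 2011 CPM in RSeT+DT cells. Only the RSeT libraries of L1PB1 were set well apart, and its log2 fold change in RSeT against primed cells was 0.55 (SE 0.039).

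L1PBa, at 310.3 and 317.8 CPM in primed and 423.4 and 445.9 CPM in RSeT cells, rose by 0.60 (SE 0.042). The 3 smallest rises were those of the name L1PB alone (0.39, SE 0.051), L1PB4 (0.35, SE 0.047) and L1PBb (0.35, SE 0.071). L1PB4, the oldest numbered subfamily, was at 563.2 and 594.0 CPM in primed and 672.1 and 675.5 CPM in RSeT cells. L1PBb, the entry with the fewest counts, was at 41.5 and 51.3 CPM in primed and 52.2 and 55.2 CPM in RSeT cells, so its primed libraries differed more from each other than the nearest values of the groups did. That spread of 14.9% (SD over mean) compares with 3.78% from counting error alone in each primed library. Without primed replicate 1 the rise of L1PBb was 0.22 (adjusted p = 0.0386 in edgeR), and without primed replicate 2 it was 0.47. It did not pass in limma on log2 of CPM plus 0.1 (0.22, adjusted p = 0.0502).

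**Figure D2:**
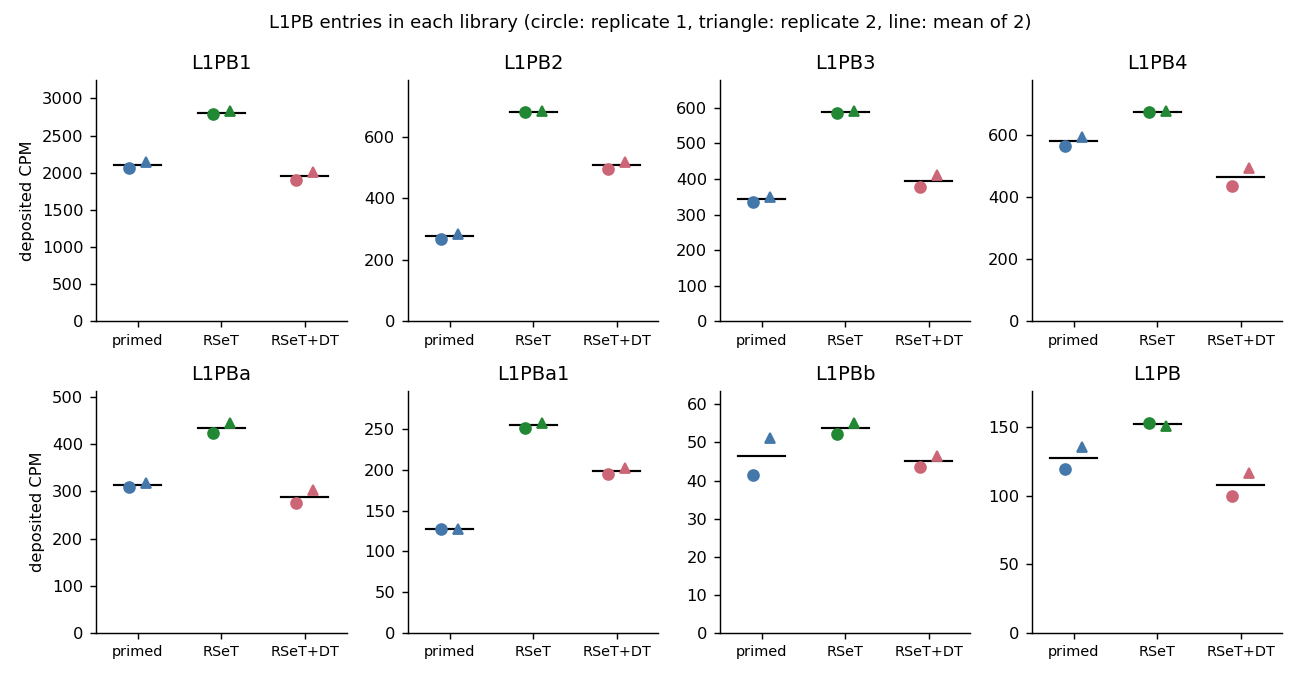
Each panel is 1 L1PB entry, the vertical axis is its deposited CPM from 0, and the horizontal axis is the group. Points are libraries and lines are means of 2. The RSeT libraries are the highest in every panel, primed cells are lowest for L1PB2, L1PB3 and L1PBa1, and the primed libraries of L1PBb lie at 41.5 and 51.3 CPM.

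The order of these rises did not follow the numbering by age, since L1PB2 and L1PB3 exceeded both L1PB1 and L1PB4. To test how the entries moved relative to each other, library totals were replaced by the summed L1PB counts, which asks of each entry whether its share of the lineage changed. The shares are tied by construction, since a higher share of some entries forces a lower share of others. On this scale L1PB2 (log2 fold change 0.77, SE 0.041), L1PBa1 (0.47, SE 0.041) and L1PB3 (0.25, SE 0.04) were higher in RSeT than in primed cells. L1PB4 (-0.31, SE 0.043), L1PBb (-0.31, SE 0.075), the name L1PB alone (-0.27, SE 0.052) and L1PB1 (-0.11, SE 0.037) were lower, while L1PBa was at -0.061 (SE 0.04, adjusted p = 0.179 in edgeR). On the same scale 4.22% of all entries tested were higher and 70.1% were lower, because L1PB rose as a whole.

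The shares show the same shift in plain counts. L1PB2 made up 7.07% ± 0.059 of L1PB counts in primed and 12.1% ± 0.089 in RSeT cells, and L1PB4 14.8% ± 0.091 and 11.9% ± 0.072 (mean ± SD, n = 2 each). The count ratio of L1PB2 to L1PB4 was 0.477 and 0.479 in the primed libraries and 1.012 and 1.010 in the RSeT libraries. Among the lettered entries, the ratio of L1PBa1 to L1PBa was 0.412 and 0.402 in primed and 0.595 and 0.579 in RSeT cells. These ratios need no scaling between libraries, and in both cases primed and RSeT cells were much farther apart than their replicates. The 3 lettered entries together kept a nearly steady ratio to the 4 numbered ones, at 0.148 ± 0.00074 in primed and 0.157 ± 0.0036 in RSeT cells, although the libraries of these groups did not overlap (0.148 and 0.147 against 0.154 and 0.159).

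**Figure D3:**
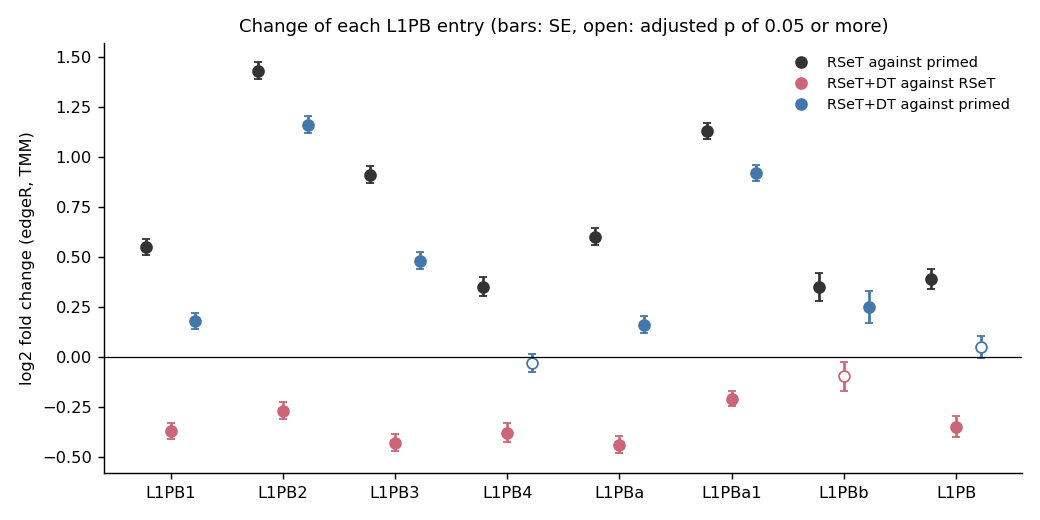
The vertical axis is the log2 fold change in edgeR with TMM scaling, the horizontal axis lists the 8 entries, colours are the 3 comparisons, bars are SE and open points have an adjusted p of 0.05 or more. In RSeT against primed cells L1PB2 (1.43), L1PBa1 (1.13) and L1PB3 (0.91) lie above the other 5, which range from 0.35 to 0.60. The RSeT libraries take part in both of the first comparisons.

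The L1PB entries were then tested against other LINE1 RNA by TMM scaling of the libraries on the LINE1 entries that are not L1PB. Relative to these, 5 of 8 entries were higher in RSeT than in primed cells and none was lower, against 10.1% and 44.7% of all entries tested. The 5 were L1PB2 (1.17, SE 0.045), L1PBa1 (0.87, SE 0.044), L1PB3 (0.65, SE 0.043), L1PBa (0.34, SE 0.042) and L1PB1 (0.29, SE 0.041). The name L1PB alone (0.13, adjusted p = 0.0514 in edgeR), L1PB4 (0.089, adjusted p = 0.106) and L1PBb (0.083, adjusted p = 0.385) did not pass. Other primate LINE1 groups had similar counts on this scale. Of the young entries L1HS and L1PA2 to L1PA8A, 7 of 9 were higher (median 0.28), of L1PA10 to L1PA17 6 of 9 (median 0.20, with 2 lower) and of L1P1 to L1P5 7 of 11 (median 0.37), beside an L1PB median of 0.31. Over all 123 other LINE1 entries 40 were higher and 31 lower, and 28 of those lower were among the 80 L1M and HAL1 entries outside L1MA.

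Other LINE1 groups give the context for these values. With TMM, the medians in RSeT against primed cells were 0.55 for the 9 young entries L1HS and L1PA2 to L1PA8A, 0.46 for the 9 entries of L1PA10 to L1PA17 and 0.63 for the 11 entries of L1P1 to L1P5. They were 0.38 for the 12 L1MA entries, an older group, and 0.21 for the 80 remaining L1M and HAL1 entries. All 9, all 9, 7, all 12 and 63 of these rose, in that order, and none fell except 1 of the last group.

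**Figure D4:**
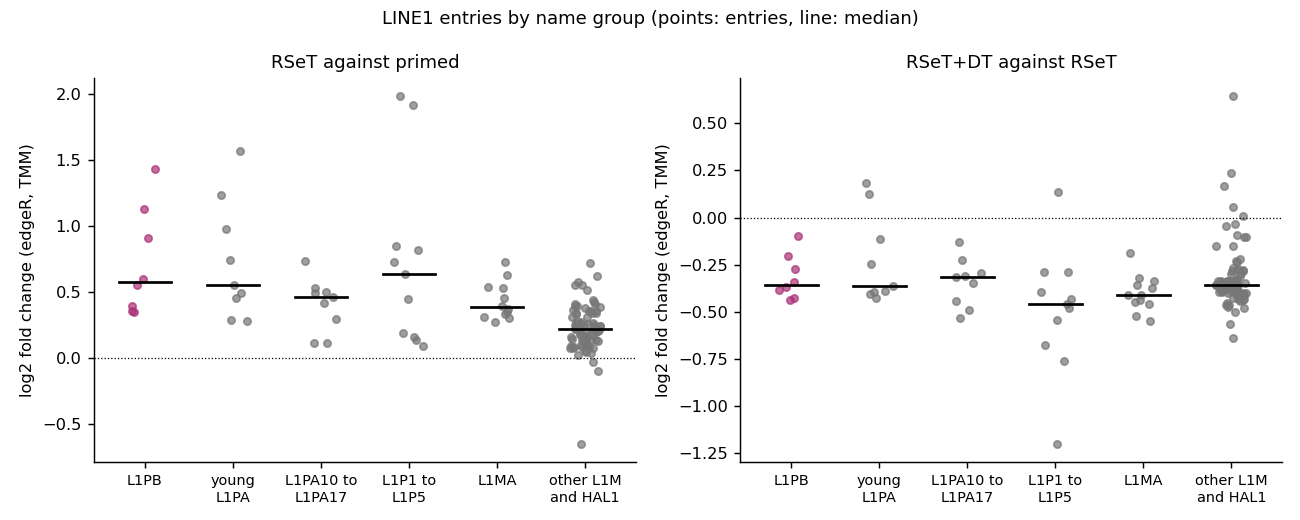
The vertical axis is the log2 fold change in edgeR with TMM scaling for RSeT against primed and for RSeT+DT against RSeT cells, and the horizontal axis groups the LINE1 entries by name. Points are entries, lines are medians, and 2 LINE1 entries outside these name groups are not drawn. The L1PB median of 0.58 lies between those of the young L1PA (0.55) and L1P1 to L1P5 (0.63) entries in the first comparison, and at -0.36 it equals that of the other L1M and HAL1 entries in the second.

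The next comparison sets RSeT+DT cells against the same RSeT libraries that entered the first, so the values of both share them. With TMM, 7 of 8 L1PB entries fell and none rose, with a median log2 fold change of -0.36, against 17.4% of all entries tested lower, 25% higher and a median of 0.027. A fall was frequent among the 1232 entries tested that are not simple repeats, with 648 lower, 79 higher and a median of -0.22. Among the other LINE1 entries 87% fell and 4.07% rose, with a median of -0.37. Interspersed scaling gave 5 of 8 lower (20.8% of all entries lower, 22.7% higher), with the direction of L1PBa1 (0.015) and L1PBb (0.12) turned and neither passing. Library totals gave 8 of 8 lower (24.8% lower, 16.9% higher). RLE size factors gave 7 of 8 lower (19.6% lower, 22.9% higher).

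The log2 fold changes of the 8 entries ran from -0.44 to -0.098, and both ends of that range were lettered entries. L1PBa went from 423.4 and 445.9 CPM in RSeT to 274.5 and 303.4 CPM in RSeT+DT cells, the largest fall (-0.44, SE 0.043, adjusted p = 7.09e-09 in edgeR). L1PB3 (-0.43, SE 0.043), L1PB4 (-0.38, SE 0.047), L1PB1 (-0.37, SE 0.039) and the name L1PB alone (-0.35, SE 0.053) fell by about as much. In RSeT+DT cells L1PB4 was at 435.3 and 494.7 CPM, a wider gap than between its RSeT libraries. In these deposited CPM both lay below every primed value of this entry, as did 47.3% of entries listed. With TMM the change of L1PB4 in RSeT+DT against primed cells was -0.031 and did not pass. The name L1PB alone was at 153.5 and 151.2 CPM in RSeT and 99.6 and 116.8 CPM in RSeT+DT cells. Its RSeT+DT libraries lay below, as did those of 39.3% of entries listed.

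The 3 smallest changes were those of L1PB2 (-0.27, SE 0.042), L1PBa1 (-0.21, SE 0.038) and L1PBb (-0.098, SE 0.074). L1PBb did not pass (adjusted p = 0.307 in edgeR), with 43.6 and 46.4 CPM in RSeT+DT cells. The fall of L1PB2 did not pass under interspersed scaling (-0.053, adjusted p = 0.166). In the deposited CPM, the RSeT+DT libraries lay below the RSeT libraries for 8 of 8 entries, against 39.3% of entries listed (21.2% had them above).

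Relative to the other LINE1 entries, no L1PB entry was lower in RSeT+DT than in RSeT cells and 2 were higher, L1PBb (0.25, SE 0.08) and L1PBa1 (0.15, SE 0.043), against 1.78% and 45.8% of all entries tested. The other 6 lay between -0.083 and 0.081. At an unadjusted p under 0.05 in edgeR the count of lower L1PB entries on this scale was also 0. The share of all entries at that threshold was not worked out. Scaled on the L1PB sum, the same 2 entries were higher, at 0.26 (SE 0.078) and 0.15 (SE 0.04), and none was lower, against 46.5% and 1.78% of all entries tested. L1PB2 made up 12.8% ± 0.23 of L1PB counts in RSeT+DT cells and L1PBa1 5.02% ± 0.11, compared with 4.52% ± 0.035 for L1PBa1 in RSeT cells.

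**Figure D5:**
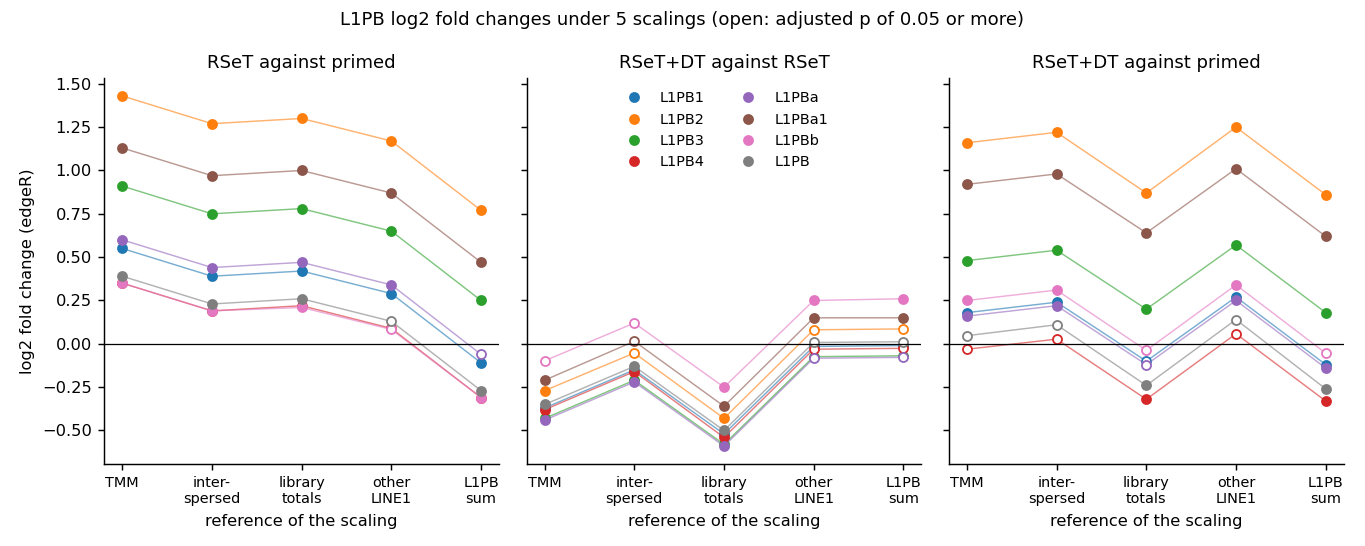
The vertical axis is the log2 fold change in edgeR, the horizontal axis is the reference used to scale the libraries, panels are the 3 comparisons, colours are entries and open points have an adjusted p of 0.05 or more. In RSeT against primed cells all 8 entries are above 0 except when scaled on the L1PB sum. In RSeT+DT against RSeT cells the values lie from -0.44 to -0.098 with TMM and from -0.083 to 0.25 when scaled on other LINE1 entries.

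RSeT+DT cells were last compared with primed cells, whose libraries also entered the first comparison. With TMM, 6 of 8 entries were higher and none was lower, against 25.1% and 20.6% of all entries tested, and against 26% and 45.5% of the other LINE1 entries. Of the 1232 entries tested that are not simple repeats, 309 were higher and 405 lower. L1PB2 (1.16, SE 0.043, 2.24-fold, adjusted p = 2.03e-17 in edgeR), L1PBa1 (0.92, SE 0.041) and L1PB3 (0.48, SE 0.043) were the highest. These 3 also passed as higher with library totals (0.87, 0.64 and 0.20), with interspersed scaling (1.22, 0.98 and 0.54), relative to other LINE1 entries (1.25, 1.01 and 0.57) and on the L1PB sum (0.86, 0.62 and 0.18). Of all entries tested, 13% were higher and 38.3% lower with library totals, and 32.3% and 29.6% with interspersed scaling. The same shares were 28.7% and 14.8% relative to other LINE1 entries, 11.7% and 38.9% on the L1PB sum and 24.6% and 21.8% with RLE size factors. In the deposited CPM the RSeT+DT libraries lay above the primed libraries for these 3 entries (17.5% of entries listed), below them for L1PB1, L1PB4, L1PBa and the name L1PB alone (47.3%), and overlapped them for L1PBb.

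The remaining entries depended on the scaling. With TMM, L1PBb (0.25), L1PB1 (0.18) and L1PBa (0.16) were higher with a call, but with library totals they stood at -0.038, -0.10 and -0.12, none passing. L1PB4 stood at -0.031 with TMM, not passing, and was lower with a call at -0.32 with library totals, while the name L1PB alone stood at 0.047 and at -0.24, the latter with a call. L1PBb did not pass in DESeq2 (0.23, adjusted p = 0.0694), and neither L1PBb (0.17) nor L1PBa (0.084) passed in edgeR when entries were limited to a mean count of at least 50. L1PBb was at 0.13 without primed replicate 1, not passing, and at 0.38 without primed replicate 2, and the name L1PB alone passed as higher without RSeT+DT replicate 1 (0.15). Library totals moved the median of all entries tested by enough to matter here, to -0.29 from -0.0089 with TMM, and by less in the other comparisons, to -0.16 from -0.03 in RSeT against primed and to -0.13 from 0.027 in RSeT+DT against RSeT cells.

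The entries whose pattern over the 6 libraries came closest to the L1PB sum were sought among 1131 other tested entries that are not simple repeats and have a mean count of at least 50. The measure was the Euclidean distance between log2 CPM values after TMM scaling (not the deposited CPM), each centred on its own mean. The 5 nearest were L1MA3 (distance 0.0395), L1MA1 (0.0782), L1M1 (0.0798), HERVK9-int (0.0913) and HERVL32-int (0.0922), of which the first 3 are LINE1 entries. Single entries differed in their neighbours. L1PB4 was closest to L1MA9 (0.036) and L1MC1 (0.0459), L1PB1 to L1MA2 (0.0636) and L1PA10 (0.068), and L1PB3 to L1P4a (0.123) and L1P2 (0.124). L1PBa was closest to L1P4 (0.0713) and L1MA2 (0.0846), and the name L1PB alone to L1M8 (0.0574) and the DNA transposon Charlie7 (0.0746).

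The entries with the largest rises in RSeT cells, L1PB2 and L1PBa1, had no LINE1 entry among their 2 nearest. L1PBa1 was closest to the retroviral entries HERVE_a-int (0.0625) and LTR66 (0.155), and L1PB2 to the satellite-associated SATR1 (0.15) and the retroviral MER4-int (0.238). SATR1 had log2 fold changes of 1.44 in RSeT against primed and -0.16 in RSeT+DT against RSeT cells, beside 1.43 and -0.27 for L1PB2. L1PBb was nearest to the LTR entries PABL_B (0.113) and MamGypLTR2b (0.127). These distances are descriptions over 6 libraries that share depth and scaling.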

How the data were processed

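RNA of H9 cells was sequenced as total RNA from 500 ng per library with a stranded kit, per the labels' protocols. The authors deposited raw counts per repeat name, summed over genomic copies, and CPM values for 7383 of the 15600 entries. The deposited CPM equal the counts scaled to each library's total over these entries within 0.00442 CPM. The submitters' processing notes name GRCh38/hg38, STAR 2.7.8a, Trimmomatic 0.39, Subread 2.14.2 and featureCounts. The role of each, the repeat annotation, the treatment of multi-mapping reads and the strand setting of the counting were not given in the sources used here. Related subfamilies can therefore share reads, and single copies and their coordinates were not analysed here.

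Counts of all 6 libraries were tested in 1 model with group as the only term, by edgeR 4.0.16's quasi-likelihood test (R 4.3.3, filterByExpr, TMM, Benjamini-Hochberg over all 4665 entries tested, threshold 0.05). Standard errors are the log2 fold change over the root of F. The smallest p of an exact permutation test (two-sided) in this design is 0.333, so p-values rest on the model (3 residual degrees of freedom, common biological coefficient of variation 5.49%). Replicate counts of the 8 entries differed beyond counting error (chi-square over its degrees of freedom 9.84 for primed, 3.12 for RSeT and 18.2 for RSeT+DT cells). The same measure was 26.3, 4.87 and 16.9 over the 5454, 6274 and 4684 entries with enough counts in these groups. Interspersed scaling left out small RNA, ribosomal RNA and simple repeats before TMM. Other alternatives were RLE factors, library totals, scaling on other LINE1 entries or on the L1PB sum, other filters, DESeq2 1.42.0, limma 3.58.1 on log2 of CPM plus 1 or 0.1, a replicate block, only the groups compared, RSeT replicate 1 thinned to the total of replicate 2, and each library left out. Named entries are all L1PB names, plus the 5 nearest to their sum and the 2 nearest to each. The members, lists and tests were chosen with earlier results of these data known. The entry named L1PB alone was added because the name rule finds it.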

Additional observations from a re-analysis of the deposited data

How the results depend on the processing

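All 8 entries kept a positive log2 fold change in RSeT against primed cells under every alternative other than the L1PB sum, and the calls were 8 of 8 except for 7 in limma on log2 of CPM plus 0.1 and 5 relative to other LINE1 entries. On the L1PB sum 3 were higher and 4 lower, with L1PB at -0.27, L1PB1 at -0.11, L1PB4 at -0.31, L1PBa at -0.061 and L1PBb at -0.31. This scale sets the sum to no change by construction. In RSeT+DT against RSeT cells, scaling on other LINE1 entries and on the L1PB sum each gave 2 higher and 0 lower. The values that turned were L1PB (0.0077 and 0.012), L1PB2 (0.081 and 0.086), L1PBa1 (0.15 and 0.15) and L1PBb (0.25 and 0.26). Interspersed scaling turned L1PBa1 (0.015) and L1PBb (0.12). The share of all entries called was not worked out for limma, DESeq2, other filters, the block, only the groups compared, thinning or libraries left out. For these settings the counts of calls show only whether the L1PB calls changed.

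In RSeT+DT against primed cells, library totals and limma with either pseudocount (1 or 0.1), which use no TMM factors, each gave 3 higher and 2 lower. L1PB stood at -0.24, L1PB1 at -0.10 and L1PBa at -0.12 in all of these, and L1PBb at -0.038, -0.036 and -0.037. On the L1PB sum 3 were higher and 4 lower, with L1PB at -0.26, L1PB1 at -0.12, L1PBa at -0.14 and L1PBb at -0.054. A mean count of at least 50 gave 4 higher entries and 1 lower (L1PB4, -0.11) and L1PB at -0.033, and the cause was not tested. L1PB4 turned to 0.058 relative to other LINE1 entries and to 0.027 with interspersed scaling. With libraries left out in turn, L1PB ranged from -0.016 to 0.15, at -0.0086 without primed replicate 1, and L1PB4 from -0.072 to 0.047. DESeq2 gave 5 higher, without L1PBb. With libraries left out, the calls ranged from 5 to 7 higher in that comparison and stayed at 8 higher and 7 lower in the others. Leaving out a library leaves 1 group with a single library, which is assumed to vary like the others.

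With the replicate number as a block the calls were 8 higher, 7 lower and 6 higher, as without it. The labels do not say that numbers pair libraries, and deviations of same-numbered libraries over 2942 entries correlated at 0.093 (RSeT and primed), -0.000762 (RSeT+DT and RSeT) and -0.0435 (RSeT+DT and primed). The L1PB share depends on its denominator, at 0.63%, 0.783% and 0.633% without small RNA, ribosomal RNA and simple repeats and at 3.41%, 4.16% and 3.95% of LINE1 counts in primed, RSeT and RSeT+DT cells. Counting error was largest for L1PBb, at up to 4.32%, while its primed libraries spread by 14.9% (SD over mean).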
